A study of Mus musculus with 6 samples.

Results

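The Toll-like receptor genes are described here in the aorta of Apoe-/- mice given erythropoietin (EPO) or saline. The members were the 10 genes Tlr1 to Tlr9 and Tlr13, chosen by name and found by their Ensembl identifiers among the 47643 genes of the count table. Apoe-/- mice lack apolipoprotein E and develop raised plasma cholesterol and atherosclerosis, and both groups carried this deletion. The EPO group (3 libraries) received a daily intraperitoneal dose of 5000 IU/kg recombinant human EPO for 4 weeks, and the Vehicle group (3 libraries) received saline by the same route for 4 weeks. The entire aorta was taken. Neither age nor sex is given in the labels, and no label states outright that the 6 libraries are of separate animals. The p-values therefore rest on the spread among 6 libraries, which may be technical. According to its title the study asks about aneurysm of the abdominal aorta, blood vessel growth and inflammatory cells under EPO. The only comparison made was that of EPO with Vehicle.

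Toll-like receptors are sensors of microbial and damaged-cell molecules. Members at the cell surface (Tlr1, Tlr2, Tlr4, Tlr5 and Tlr6) bind lipids and proteins, and members in endosomes (Tlr3, Tlr7, Tlr8, Tlr9 and Tlr13) bind nucleic acids. Most signal through the adaptor Myd88 to NF-kB, and Tlr3 signals through Ticam1. Macrophages are their best-known source, although endothelial cells, fibroblasts and smooth muscle cells also express some of them. In bulk tissue, fewer or more cells of a type and less or more RNA per cell cannot be told apart.

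With EPO, 7 of the 10 genes were higher and 0 lower: Tlr13 (3.64-fold), Tlr8 (3.34-fold), Tlr9 (3.06-fold), Tlr7 (2.03-fold), Tlr1 (1.99-fold), Tlr6 (1.94-fold) and Tlr2 (1.65-fold). Tlr3, Tlr4 and Tlr5 were not called. The threshold was an adjusted p below 0.05 from the quasi-likelihood test of edgeR, fitted to 16522 genes. Of these, 12.9% were called higher, 10.1% lower and 23% in either direction. The median log2 fold change was 0.98 over the 10 members and 0.0113 over all genes tested. All 10 members passed the filter on low counts. Of 5 leukocyte markers 3 were also higher, and of 10 macrophage markers 2, with values given further on.

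The sequence upstream of 5 of these genes, picked after the folds were seen, is shown. There, members that changed together can be compared with Tlr5, which was not called. Tlr1 and Tlr6, also called, have promoter entries that are not printed. The letters are from the RefSeq promoter table (GRCm38.p6), 5′ to 3′ on the strand of the gene, ending at the base before the transcription start. Where GENCODE places the start further upstream, as for Tlr13 and Tlr2, the bases inside the gene were left off. Capitals mark matches to GAGGAA, the purine-rich core bound by PU.1 (Spi1), a transcription factor of myeloid cells, or to a form of the NF-kB site, GGGA and CC with any 4 bases between them.
Tlr13 (chrX:106143025-106143203, plus strand): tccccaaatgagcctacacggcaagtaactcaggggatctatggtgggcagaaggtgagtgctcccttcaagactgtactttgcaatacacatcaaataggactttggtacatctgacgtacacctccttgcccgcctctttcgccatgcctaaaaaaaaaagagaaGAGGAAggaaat
Tlr8 (chrX:167264330-167264579, minus strand): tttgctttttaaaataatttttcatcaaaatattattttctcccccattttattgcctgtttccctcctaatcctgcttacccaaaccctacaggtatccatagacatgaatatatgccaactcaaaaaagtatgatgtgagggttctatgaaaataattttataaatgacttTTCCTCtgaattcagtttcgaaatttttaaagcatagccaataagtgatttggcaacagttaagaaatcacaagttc
Tlr9 (chr9:106222348-106222597, plus strand): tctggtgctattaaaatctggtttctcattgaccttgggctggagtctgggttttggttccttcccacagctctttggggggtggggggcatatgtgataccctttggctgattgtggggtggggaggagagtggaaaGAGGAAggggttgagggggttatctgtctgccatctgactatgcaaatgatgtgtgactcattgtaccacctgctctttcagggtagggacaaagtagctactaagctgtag
Tlr2 (chr3:83841768-83841858, minus strand): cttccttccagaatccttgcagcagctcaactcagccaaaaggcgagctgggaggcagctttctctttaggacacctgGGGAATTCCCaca
Tlr5 (chr1:182954538-182954787, plus strand): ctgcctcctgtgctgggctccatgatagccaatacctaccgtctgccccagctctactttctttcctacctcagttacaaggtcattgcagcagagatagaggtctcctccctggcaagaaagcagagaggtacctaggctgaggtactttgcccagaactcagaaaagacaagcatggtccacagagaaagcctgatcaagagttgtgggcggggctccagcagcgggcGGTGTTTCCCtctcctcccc

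A promoter entry was found for 8 of the 10 members, and there was none for Tlr4 or Tlr7. Over 250 bases upstream of the RefSeq start, on both strands, GAGGAA occurred in 4 of the 8 (Tlr1, Tlr8, Tlr9 and Tlr13) and in 23.3% of 32817 mouse promoters. In Tlr13 it lay 83 to 78 bases upstream of the RefSeq start, in Tlr8 77 to 72 bases upstream on the opposite strand and in Tlr9 112 to 107 bases upstream. The NF-kB form occurred in 3 of the 8 (Tlr2, Tlr3 and Tlr5) and in 17.6% of all promoters. For Tlr3, GENCODE places the start 700 bases further upstream, so its matches lie inside the gene by that annotation. The copy in Tlr2, GGGAATTCCC, reads the same on both strands. The interferon response core (GAAA and GAAA with 2 bases between) and the composite ETS and IRF element (GGAA and GAAA with 2 bases between) occurred in 0 of the 8, and in 2.97% and 2.3% of all promoters. Of the 3 genes with the largest folds, each held GAGGAA, as did Tlr1, while Tlr2 and Tlr6 were called without it. This grouping by fold was made after the values were seen and is given without a test. A match of letters is a description, and no binding was measured.

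Library depth ran from 23278649 counts in Vehicle 1 to 38502430 in EPO 1. CPM are read counts scaled to library size, here with TMM adjustment. From counting error alone, a gene with 0 counts could lie at up to 0.129 CPM in Vehicle 1 and 0.0779 CPM in EPO 1, both taken over the raw library total without TMM. Summed over the 10 members, the Vehicle libraries 1, 2 and 3 held 1903, 3082 and 3429 counts, and the EPO libraries 8935, 5478 and 6368. Vehicle 1 was the lowest of the 6 libraries for 8 members, and EPO 1 the highest for 6. Smooth muscle and endothelial markers, such as Myh11 (5240 ± 921 CPM in Vehicle, SD, n = 3) and Pecam1 (542 ± 20.2 CPM), were present as the tissue label says. Skeletal muscle markers differed widely between the groups, with a summed level from 5.09 to 12 CPM in Vehicle and from 218 to 1830 CPM in EPO.

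**Figure D1:**
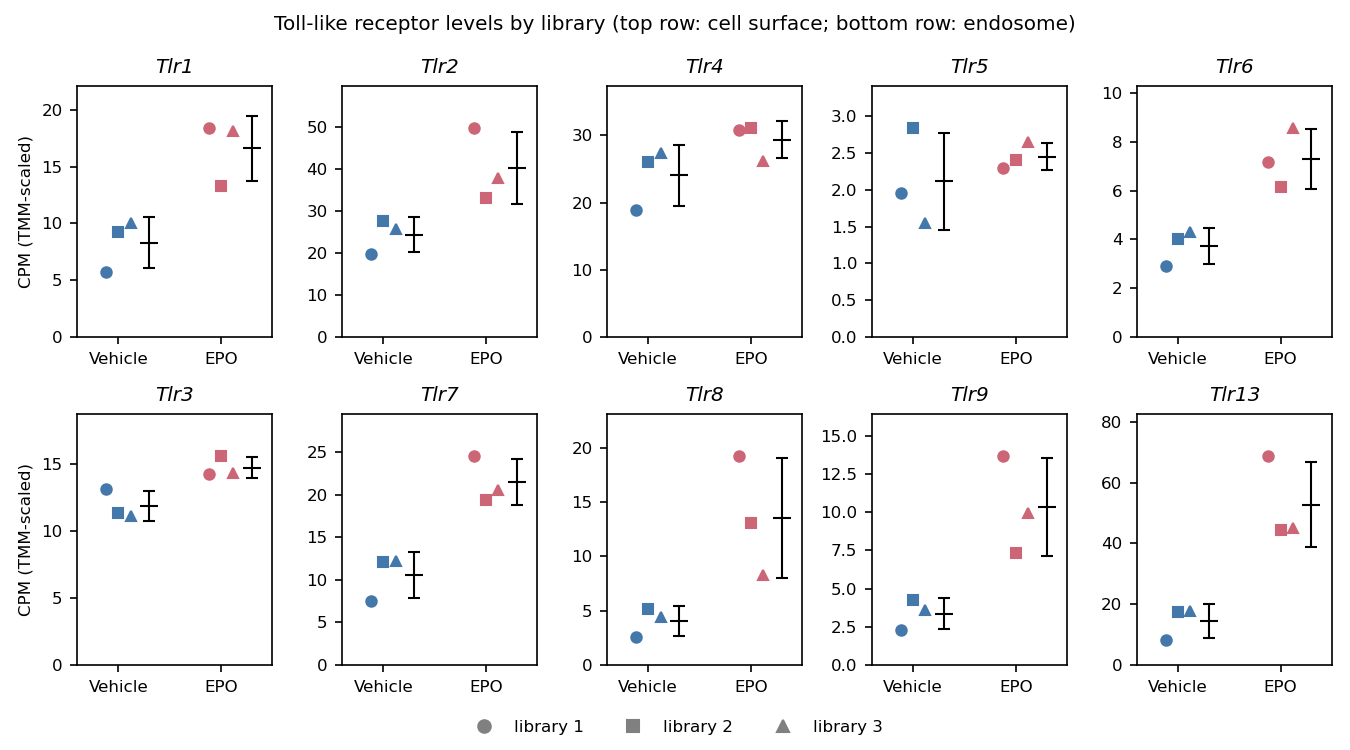
TMM-scaled CPM of each Toll-like receptor gene (vertical axis, from 0) in the 3 Vehicle and 3 EPO libraries, with symbols for the library number; the dash and bar are the mean ± SD. The groups are apart in 8 panels and overlap for Tlr4 and Tlr5.

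Among the endosomal receptors, Tlr13 showed the largest fold. This receptor of bacterial ribosomal RNA, found in mice and not in humans (ENSMUSG00000033777, GRCm38 chrX:106143204-106160493), stood at 8.04, 17.5 and 17.9 CPM in Vehicle 1, 2 and 3 and at 68.9, 44.4 and 45.0 CPM in EPO 1, 2 and 3. Every EPO library was above every Vehicle library. The means were 14.5 ± 5.57 and 52.8 ± 14.0 CPM (SD, n = 3), and the log2 fold change was 1.86 (SE 0.33, 95% interval 1.10 to 2.63, edgeR adjusted p = 0.00821). The call was kept without any 1 of the 6 libraries, with adjusted p from 0.0147 to 0.0281.

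Tlr8 and Tlr7 are neighbouring genes on the X chromosome whose proteins bind RNA and its breakdown products. Tlr8 (ENSMUSG00000040522, chrX:167242696-167264329) stood at 2.56, 5.17 and 4.42 CPM in Vehicle 1, 2 and 3 and at 19.3, 13.1 and 8.30 CPM in EPO 1, 2 and 3. The EPO libraries were all above the Vehicle libraries but EPO 3 was far below EPO 1. Its log2 fold change was 1.74 (SE 0.37, 95% interval 0.87 to 2.61, edgeR adjusted p = 0.0163), and without Vehicle 1 the adjusted p was 0.0582. Tlr7 (ENSMUSG00000044583, chrX:167304929-167330558) stood at 7.47, 12.1 and 12.2 CPM in Vehicle and at 24.6, 19.4 and 20.6 CPM in EPO. The EPO libraries lay close together, all above the Vehicle libraries, and the log2 fold change was 1.02 (SE 0.22, 95% interval 0.52 to 1.53, edgeR adjusted p = 0.0159). The ratio of Tlr8 to Tlr7 counts, which does not depend on library scaling, was 0.343, 0.428 and 0.362 in Vehicle and 0.787, 0.675 and 0.404 in EPO. It overlapped between the groups through EPO 3.

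Tlr9, the receptor of DNA with unmethylated CpG (ENSMUSG00000045322, chr9:106222598-106226883), stood at 2.26, 4.24 and 3.59 CPM in Vehicle 1, 2 and 3 and at 13.7, 7.30 and 9.95 CPM in EPO 1, 2 and 3. Here too the groups did not overlap, with EPO 1 highest and Vehicle 1 lowest. The log2 fold change was 1.62 (SE 0.32, 95% interval 0.87 to 2.36, edgeR adjusted p = 0.0125), and the call was kept without any 1 library (adjusted p from 0.0172 to 0.0467). Tlr3, the receptor of RNA duplexes (ENSMUSG00000031639, chr8:45395665-45411080), stood at 13.1, 11.3 and 11.1 CPM in Vehicle and at 14.2, 15.6 and 14.3 CPM in EPO. Its groups did not overlap either, but the gap was small. The log2 fold change of 0.31 did not pass (SE 0.14, 95% interval -0.02 to 0.64, edgeR adjusted p = 0.152). An antisense transcript, Gm45542, overlaps exons of Tlr3, and the strand setting of the counting is not given, so Tlr3 counts are uncertain in that part.

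Among the surface receptors, Tlr2 pairs with Tlr1 or Tlr6 to bind bacterial lipopeptides. Tlr2 (ENSMUSG00000027995, chr3:83836272-83841767) stood at 19.8, 27.6 and 25.8 CPM in Vehicle 1, 2 and 3 and at 49.8, 33.2 and 37.8 CPM in EPO 1, 2 and 3. EPO 1 was well above EPO 2 and EPO 3, and all 3 were above the Vehicle libraries. The log2 fold change was 0.72 (SE 0.19, 95% interval 0.27 to 1.18, edgeR adjusted p = 0.0351). This was the least stable of the calls by library: without Vehicle 1, Vehicle 2, Vehicle 3, EPO 1 or EPO 3 the adjusted p was 0.128, 0.068, 0.0755, 0.0631 and 0.0607.

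Tlr1 (ENSMUSG00000044827, chr5:64924679-64933563) stood at 5.74, 9.21 and 10 CPM in Vehicle and at 18.4, 13.3 and 18.1 CPM in EPO. Its groups did not overlap, and the log2 fold change was 0.99 (SE 0.25, 95% interval 0.42 to 1.56, edgeR adjusted p = 0.0264). Without Vehicle 1, Vehicle 2, EPO 1 or EPO 3 its adjusted p was 0.0749, 0.0717, 0.0592 and 0.0664. Tlr6 (ENSMUSG00000051498, chr5:64952031-64960097), the neighbour of Tlr1, stood at 2.91, 4.00 and 4.31 CPM in Vehicle and at 7.17, 6.14 and 8.57 CPM in EPO. Its groups were apart as well, with a log2 fold change of 0.96 (SE 0.24, 95% interval 0.41 to 1.51, edgeR adjusted p = 0.0261), and without Vehicle 1, Vehicle 2 or EPO 3 the adjusted p was 0.1, 0.0793 and 0.0733. The transcripts of Tlr1 and Tlr6 share sequence: 5.8% of the 125-base words of Tlr1 and 5.21% of those of Tlr6 were identical, and no other pair of the mouse Tlr genes shared one. Reads from that stretch cannot be assigned to one gene, but the rest of each transcript can. The ratio of Tlr1 to Tlr6 counts lay between 1.97 and 2.33 in Vehicle and between 2.11 and 2.57 in EPO.

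Tlr4, which binds bacterial lipopolysaccharide together with Ly96 (ENSMUSG00000039005, chr4:66827584-66930284), stood at 18.9, 26.0 and 27.3 CPM in Vehicle 1, 2 and 3 and at 30.8, 31.1 and 26.2 CPM in EPO 1, 2 and 3. EPO 3 lay below Vehicle 3, so the groups overlapped. The log2 fold change was 0.29 (SE 0.17, edgeR adjusted p = 0.258), and its 95% interval, -0.11 to 0.68, holds folds from 0.929 to 1.60. Tlr5, the receptor of flagellin (ENSMUSG00000079164, chr1:182954788-182976044), was the lowest member, at 1.96, 2.84 and 1.55 CPM in Vehicle and 2.29, 2.41 and 2.65 CPM in EPO. Its highest value was in Vehicle 2. It had 45 to 88 counts per library. The log2 fold change was 0.21 (SE 0.30, edgeR adjusted p = 0.65), and its 95% interval, -0.49 to 0.91, holds folds from 0.712 to 1.88. The parts of counting error and of spread between libraries in this width were not separated. Tlr8, Tlr9 and Tlr13 had more counts and larger SEs (0.37, 0.32 and 0.33).

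**Figure D2:**
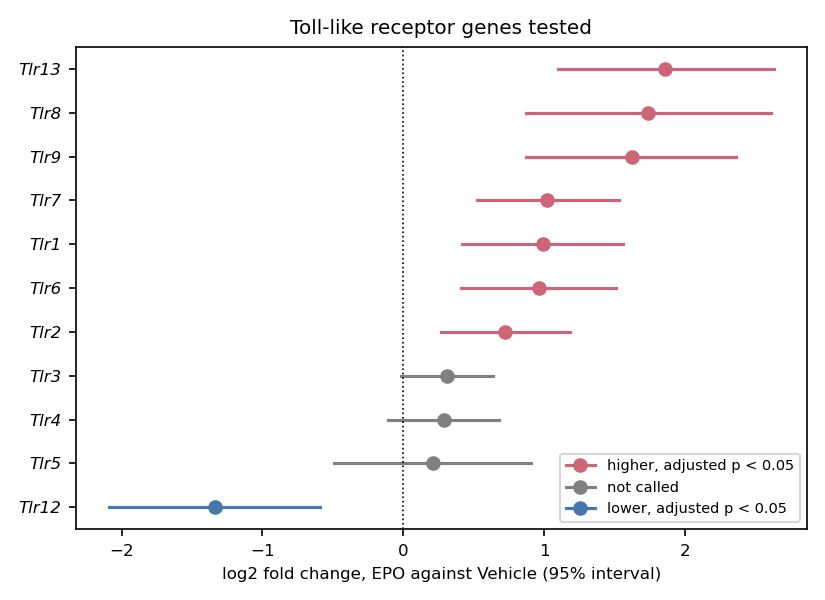
Fitted log2 fold change of EPO against Vehicle (horizontal axis) with its 95% interval for the 10 Toll-like receptor genes and Tlr12, ordered by size. The intervals of the 7 called genes lie above 0, those of Tlr3, Tlr4 and Tlr5 include 0, and that of Tlr12 lies below 0.

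The groups did not overlap for 8 members (the 7 called and Tlr3), with EPO above Vehicle in each, against 22.9% of all genes tested. For 0 members was EPO below Vehicle throughout, against 21% of all genes. The count of higher members fell to 3 without Vehicle 1 (Tlr7, Tlr9 and Tlr13), to 4 without Vehicle 2 (Tlr7, Tlr8, Tlr9 and Tlr13) and to 4 without EPO 3 (the same genes as without Vehicle 2). The number of genes called higher over the whole table fell as well, from 2133 to 936 without Vehicle 1 and to 1075 without Vehicle 2. Without EPO 1 that number rose to 2265, while the higher members fell to 5. There were 6 higher members without Vehicle 3 and 7 without EPO 2. Every log2 fold change of the 10 members stayed above 0 when any 1 library was left out.

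The makeup of the receptor counts differed between the groups. Tlr7, Tlr8, Tlr9 and Tlr13 together took 24.6%, 32.5% and 32.2% of the counts of the 10 members in Vehicle 1, 2 and 3 and 50.8%, 45.3% and 43.8% in EPO 1, 2 and 3. This set leaves out the endosomal member Tlr3, whose share went from 11.6% ± 3.73 to 7.19% ± 1.37. Within the set, Tlr7 went only from 9.82% ± 0.685 to 10.3% ± 0.448. Tlr13 alone went from 13.1% ± 2.98 to 25.0% ± 2.30, and Tlr4 from 22.5% ± 0.752 to 14.3% ± 2.25 (SD, n = 3 each). The ratio of Tlr13 to Tlr4 counts was 0.426, 0.672 and 0.655 in Vehicle and 2.24, 1.43 and 1.72 in EPO. In each Vehicle library Tlr4 had more counts than Tlr13, and in each EPO library fewer. The set of Tlr7, Tlr8, Tlr9 and Tlr13 and these pairs were picked after their values were seen and are given without a test.

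Levels were compared between genes as CPM per kilobase of merged exons. In Vehicle the order was Tlr2 (8.09 ± 1.36), Tlr4 (4.33 ± 0.819), Tlr13 (3.36 ± 1.29), Tlr7 (2.60 ± 0.662), Tlr1 (2.49 ± 0.683), Tlr3 (2.28 ± 0.212), Tlr8 (1.13 ± 0.374), Tlr6 (1 ± 0.198), Tlr9 (0.967 ± 0.290) and Tlr5 (0.442 ± 0.137). Neighbours in that order differed by more than the larger SD of the pair at 3 places, below Tlr2, below Tlr3 and below Tlr9. With EPO the order was Tlr2 (13.3 ± 2.84), Tlr13 (12.3 ± 3.25), Tlr4 (5.29 ± 0.502), Tlr7 (5.27 ± 0.663), Tlr1 (4.96 ± 0.860), Tlr8 (3.79 ± 1.54), Tlr9 (2.97 ± 0.928), Tlr3 (2.83 ± 0.15), Tlr6 (1.96 ± 0.326) and Tlr5 (0.511 ± 0.038). Tlr2 and Tlr13 did not differ beyond their spread there, and the gap below Tlr13 was larger than either SD.

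Mice have further members, Tlr11 and Tlr12, which bind a parasite protein. Tlr12 (ENSMUSG00000062545, chr4:128615443-128618619) went the other way: 1.78, 3.03 and 3.04 CPM in Vehicle 1, 2 and 3 and 0.948, 1.22 and 0.932 CPM in EPO 1, 2 and 3. Every EPO library was below every Vehicle library, and the gene fell by 1.34 on the log2 scale (SE 0.32, edgeR adjusted p = 0.0242). Without Vehicle 2, Vehicle 3, EPO 2 or EPO 3 its adjusted p was 0.0883, 0.0752, 0.0521 and 0.0688. Tlr11, with 4, 6 and 6 counts in the Vehicle libraries against 23, 18 and 10 under EPO, did not pass the filter on low counts.

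Of 5 markers of all leukocytes 3 were higher (Ptprc, Spi1 and Itgb2) and 0 lower, and their summed level ran from 353 to 586 CPM in Vehicle and from 728 to 1460 CPM in EPO. Ptprc, the leukocyte surface phosphatase CD45, stood at 31.7, 46.7 and 48.1 CPM in Vehicle and 142, 103 and 108 CPM with EPO, a log2 fold change of 1.48 (SE 0.20, edgeR adjusted p = 0.00383). Spi1, the gene of PU.1, had a log2 fold change of 1.55 (edgeR adjusted p = 0.0348), and without Vehicle 1, Vehicle 2 or Vehicle 3 its adjusted p was 0.126, 0.109 and 0.0538. Itgb2, an integrin chain of leukocytes, lost its call without any library but EPO 2 (adjusted p from 0.0532 to 0.159). Only Ptprc was called without Vehicle 1, Vehicle 2 or Vehicle 3, so the list then had 1 higher gene, and without EPO 1 it had 2.

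Of 10 macrophage markers 2 were higher, Fcgr1 (log2 fold change 1.44, edgeR adjusted p = 0.00689) and Adgre1, the F4/80 antigen (1.55, adjusted p = 0.0161 and 0.0587 without Vehicle 1, where 1 marker was left; without EPO 2 there were 3). The median of the list was 1.17, and its summed level was 2000, 3600 and 3980 CPM in Vehicle 1, 2 and 3 and 9700, 4640 and 4180 CPM in EPO 1, 2 and 3. EPO 1 was thus far above EPO 2 and EPO 3, which lay just above Vehicle 3. Csf1r, the receptor of a macrophage growth factor, did not pass (log2 fold change 0.66, edgeR adjusted p = 0.0778). Over all genes tested, 12.9% were called higher. For monocytes 1 of 4 markers was higher, Plac8 (log2 fold change 1.99, edgeR adjusted p = 0.00368), with a summed level from 25.3 to 62.2 CPM in Vehicle and from 108 to 181 CPM in EPO. For neutrophils 1 of 6 tested was higher, Csf3r, whose adjusted p was 0.0376 and between 0.0501 and 0.136 without Vehicle 1, Vehicle 2, Vehicle 3 or EPO 3. The summed neutrophil level was 12 to 32.2 CPM in Vehicle and 38, 50.4 and 250 CPM in EPO 1, 2 and 3. Their part in the receptor changes was not tested.

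Markers of dendritic cells, B cells and T cells were not called. Of conventional dendritic cell markers 0 of 6 were called (summed level 68.4 to 103 CPM in Vehicle and 64.1 to 156 CPM in EPO), of plasmacytoid dendritic cell markers 0 of 3 tested (1.62 to 4.35 and 2.95 to 6.37 CPM), of B cell markers 0 of 5 (9.97 to 19.0 and 11.4 to 30.2 CPM) and of T cell markers 0 of 5 (14.9 to 31.4 and 21.8 to 31.5 CPM). Klk1 and Ly6g were too low to be tested, and Klk1 was at 0 in Vehicle 3. Among structural cells, 5 of 5 smooth muscle and 4 of 5 adipocyte markers were lower, 2 of 5 fibroblast and 5 of 5 skeletal muscle markers were higher, and of 5 endothelial markers 2 were higher and 1 lower. Mast cell markers were lower in 4 of 5, and erythroid markers were called in 0 of 5. The endothelial genes Cdh5 and Kdr missed the threshold without Vehicle 1 (adjusted p = 0.0545 and 0.0584), and Pecam1 without any library but EPO 1 (0.0604 to 0.0827). The mast cell proteases Mcpt4, Tpsb2 and Cma1 missed it without Vehicle 1 or Vehicle 2 (0.0676 to 0.0876), and Tpsb2 and Cma1 also without EPO 2 (0.0678 and 0.0613). Of the adipocyte genes, Cidec missed it without Vehicle 1, Vehicle 2, EPO 2 or EPO 3 (0.0604 to 0.101) and Adipoq without EPO 2 (0.0505).

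The receptor levels were also set against the macrophage markers of the same library, as CPM per 1000 CPM of the 10 summed markers, of which Lyz2 is a large part (954, 1990 and 2170 CPM in Vehicle). C1qa, C1qb and C1qc are large parts too (1560, 1330 and 1390 CPM in EPO 1), and none of these genes was called. Tlr13 stood at 4.01, 4.85 and 4.50 in Vehicle and at 7.11, 9.58 and 10.8 in EPO, Tlr9 at 1.13, 1.18 and 0.901 against 1.41, 1.57 and 2.38, and Tlr8 at 1.28, 1.44 and 1.11 against 1.99, 2.83 and 1.98. For these 3 genes every EPO library was above every Vehicle library on this scale too. The scale is that of the sum and not of each marker. The called markers Adgre1 and Fcgr1 had log2 fold changes of 1.55 and 1.44, against 1.86, 1.62 and 1.74 for Tlr13, Tlr9 and Tlr8. Tlr1, Tlr2, Tlr6 and Tlr7, called on the CPM scale, overlapped between the groups here, with ratios of the means (EPO to Vehicle) of 1.14, 0.888, 1.13 and 1.15. Tlr4 was lower in each EPO library, at 9.41, 7.21 and 6.86 in Vehicle and 3.18, 6.71 and 6.25 in EPO. Against the 5 leukocyte markers Tlr9 and Tlr13 again did not overlap, while Tlr8 did (7.26, 10.3 and 7.53 in Vehicle, 13.2, 18 and 10 in EPO). No test was made on these ratios, and the share of all genes whose groups do not overlap on these scales was not computed.

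**Figure D3:**
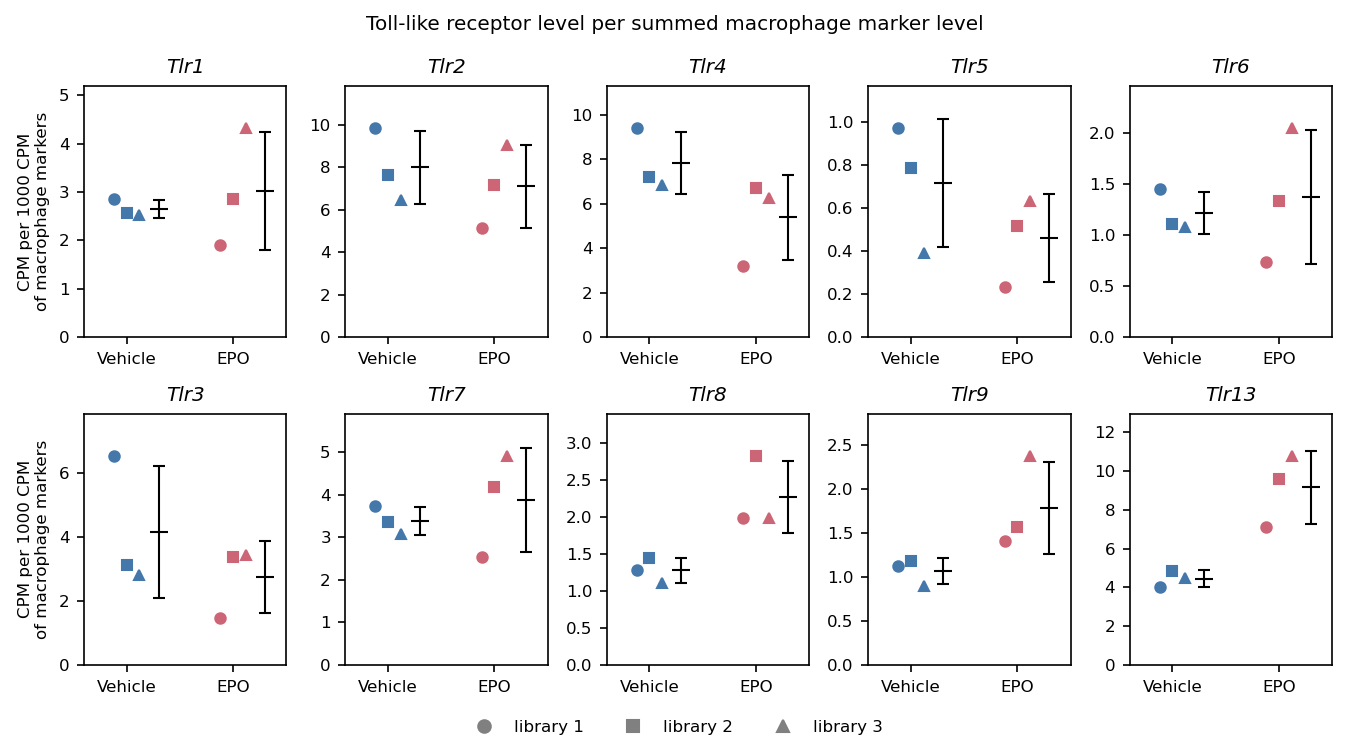
Toll-like receptor level divided by the summed level of 10 macrophage markers in the same library, in CPM per 1000 CPM (vertical axis, from 0), with the mean ± SD of 3 libraries. Tlr8, Tlr9 and Tlr13 are higher in each EPO library than in each Vehicle library, and Tlr4 is lower.

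Genes nearest in pattern were those with the smallest root mean square difference of centred log2 CPM over the 6 libraries. They were sought among tested protein-coding genes, leaving out gene models with Gm or Rik names. For Tlr13 they were Atp8b4 (0.0738) and Havcr2, an immune checkpoint receptor (0.126). For Tlr7 they were Pirb, an inhibitory receptor of myeloid and B cells (0.0532), and Zmynd15 (0.0604), for Tlr9 Ncf4, a subunit of the phagocyte NADPH oxidase (0.128), and Sema4d (0.132), and for Tlr8 Prss46 (0.155) and Kcnk13 (0.157). Tlr1 lay nearest Cd52 (0.0801) and Slfn2 (0.0891), Tlr2 nearest Rin3 (0.0738) and Slc26a11 (0.079), and Tlr6 nearest Rassf5 (0.072) and Srgn (0.0958). The genes nearest Tlr3 were Ints2 (0.0314) and Tdrd7 (0.0388), those nearest Tlr4 Usp31 (0.0512) and Ackr1, a chemokine-binding protein of venules (0.0572), and those nearest Tlr5 Dnajb13 (0.107) and Mnd1 (0.11). With 6 libraries many genes have like patterns, and these names are a description.

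Sensors of other families were mostly higher. Of 12 genes for C-type lectin, NOD-like and cytosolic nucleic acid receptors, 10 were higher and 1 lower, with a median log2 fold change of 1.06. Clec4n, the lectin Dectin-2, stood at 5.52, 13.4 and 16.6 CPM in Vehicle and 102, 154 and 99.5 CPM with EPO, a log2 fold change of 3.32 (SE 0.40, edgeR adjusted p = 0.00289). Tmem173, the adaptor STING of cytosolic DNA sensing, rose from 21.5 ± 4.35 to 58.2 ± 6.69 CPM, Nod1 from 47.0 ± 4.29 to 88.1 ± 8.72 CPM and the inflammasome sensor Nlrp3 from 3.49 ± 0.959 to 9.65 ± 1.19 CPM (SD, n = 3; edgeR adjusted p = 0.00296, 0.00415 and 0.00763). Clec7a, the beta-glucan receptor Dectin-1, fell from 91.6 ± 8.43 to 46.2 ± 19.7 CPM (edgeR adjusted p = 0.0381). EPO 1, at 68.9 CPM, lay between the Vehicle libraries and the EPO libraries 2 and 3 (35.5 and 34.2 CPM). It lost its call without any library but EPO 1 (adjusted p from 0.0823 to 0.103), and the list then had 0 lower genes. The higher genes numbered 6 without Vehicle 1, 5 without Vehicle 2 and 6 without EPO 3.

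Of 11 accessory proteins of the receptors, 1 was higher and 0 lower (median log2 fold change 0.52), against 12.9% and 10.1% of all genes tested. With DESeq2, or without a filter on low counts, 4 were higher. The called gene was Unc93b1, the chaperone that carries endosomal receptors out of the endoplasmic reticulum. It stood at 91.5, 112 and 122 CPM in Vehicle 1, 2 and 3 and 363, 159 and 191 CPM with EPO, a log2 fold change of 1.13 (SE 0.31, edgeR adjusted p = 0.0367). EPO 1 was well above the other EPO libraries, and without Vehicle 1, Vehicle 2 or Vehicle 3 the adjusted p was 0.136, 0.105 and 0.0717. Cd14, which hands lipopolysaccharide to Tlr4, did not pass (27.5 ± 6.21 and 65.2 ± 47.1 CPM, edgeR adjusted p = 0.0968), though it did without EPO 2 (0.0431). Ly86 and its partner Cd180, a relative of Tlr4, had log2 fold changes of 1.16 and 0.74 (adjusted p = 0.0595 and 0.0847), and Cd180 passed without Vehicle 2 (0.0474). The list had 0 higher genes without Vehicle 1 or Vehicle 3 and 2 without EPO 1 or EPO 2.

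Of 22 adaptors and kinases 6 were higher and 1 lower (median log2 fold change 0.25), against 12.9% and 10.1% of all genes tested. Myd88 rose from 26.8 ± 2.77 to 45.5 ± 3.24 CPM (SD, n = 3), a log2 fold change of 0.76 (SE 0.13, edgeR adjusted p = 0.0068), and kept its call without any 1 library. Pik3ap1, an adaptor that links the receptors to PI3 kinase, stood at 10.9, 14.3 and 13.8 CPM in Vehicle and 79.4, 37.2 and 35.3 CPM with EPO, a log2 fold change of 1.96 (edgeR adjusted p = 0.00712). Irak4, the kinase next to Myd88, and the kinase Ikbke had log2 fold changes of 0.60 and 0.68 (edgeR adjusted p = 0.0142 and 0.0148). Irak4 missed the threshold without Vehicle 1, Vehicle 2 or Vehicle 3 (0.0695, 0.0599 and 0.053), and Ikbke without Vehicle 1 or Vehicle 2 (0.0552 and 0.0609). Irak2 fell by 0.65 on the log2 scale (72.3 ± 8.22 to 46.1 ± 7.94 CPM, edgeR adjusted p = 0.0266), and without Vehicle 1, Vehicle 2, Vehicle 3 or EPO 2 its adjusted p lay between 0.057 and 0.0971. The higher genes numbered 2 without Vehicle 1 and 3 without Vehicle 2. Myd88 overlaps Acaa1a, and Irak4 overlaps Twf1, on the opposite strand, so their counts are uncertain.

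Of 9 transcription factors 4 were higher and 0 lower (median log2 fold change 0.71). Irf7, which drives type I interferon genes, stood at 18.7, 22.6 and 23.3 CPM in Vehicle and 47.3, 42.0 and 69.2 CPM with EPO, a log2 fold change of 1.29 (SE 0.21, edgeR adjusted p = 0.00607). The NF-kB subunits Nfkb2 and Rel had log2 fold changes of 0.72 and 0.71 (edgeR adjusted p = 0.00999 and 0.0189), and Irf8, a myeloid factor, 1.12 (0.0224). Without Vehicle 1 all but Irf7 missed the threshold (adjusted p = 0.0535 for Nfkb2, 0.0718 for Rel and 0.0908 for Irf8). Without Vehicle 2 the list had 2 higher genes, Irf8 being at 0.0752 and Rel at 0.0533, and Rel also missed the threshold without Vehicle 3, EPO 2 or EPO 3 (0.0637, 0.0535 and 0.0536). Irf7 overlaps Phrf1 and Nfkb2 overlaps Psd on the opposite strand.

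Of 15 inhibitors of the pathway 5 were higher and 1 lower (median log2 fold change 0.37). Nfkbie, an inhibitor of NF-kB, stood at 7.17, 9.06 and 8.83 CPM in Vehicle and 24.0, 19.1 and 26.9 CPM with EPO, a log2 fold change of 1.48 (SE 0.18, edgeR adjusted p = 0.00289). Socs3, a brake on cytokine receptors, rose from 32.3 ± 12 to 133 ± 57.3 CPM (edgeR adjusted p = 0.00945), and both kept their calls without any 1 library. Tnip1 and Socs1 had log2 fold changes of 0.53 and 2.05 (edgeR adjusted p = 0.0201 and 0.0245), which missed the threshold without Vehicle 1, Vehicle 2 or Vehicle 3 (adjusted p from 0.051 to 0.088). Atf3, a stress-induced repressor, fell from 70.5 ± 23.5 to 36.9 ± 6.59 CPM (edgeR adjusted p = 0.0385), and missed it without Vehicle 2, Vehicle 3, EPO 2 or EPO 3 (0.0911 to 0.113). The higher genes numbered 2 without Vehicle 1, Vehicle 2 or Vehicle 3.

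Of 20 tested genes that the pathway is known to switch on, 8 were higher and 0 lower (median log2 fold change 1.27), and Il12a, Il12b and Ifnb1 were too low to be tested. Cxcl2, a chemokine for neutrophils, stood at 1.04, 1.52 and 1.97 CPM in Vehicle 1, 2 and 3 and 4.66, 7.98 and 17.9 CPM with EPO, a log2 fold change of 2.74 (SE 0.52, edgeR adjusted p = 0.0111). EPO 3 was the highest, as it was for the neutrophil markers, whose part in this was not tested. Cd40 and Cd80, costimulatory proteins, had log2 fold changes of 0.94 and 1.79, and Cxcl10, an interferon-induced chemokine, 1.54 (edgeR adjusted p = 0.0155, 0.0258 and 0.0214). All 4 missed the threshold without Vehicle 1 (adjusted p from 0.0539 to 0.0879). Cd40 and Cxcl10 also missed it without Vehicle 2 (0.0599 and 0.0513), Cxcl10 without EPO 3 (0.054) and Cd80 without Vehicle 3 or EPO 2 (0.0613 and 0.0732). The list had 0 higher genes without Vehicle 1, 2 without Vehicle 2 and 3 without EPO 2 or EPO 3, and without Vehicle 3 it had 1 lower gene. Cxcl10 overlaps Art3 on the opposite strand.

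Of 9 host molecules described as ligands of Tlr2 or Tlr4, 2 were higher and 0 lower (median log2 fold change 0.38). Over all genes tested, 12.9% were called higher and 10.1% lower. They were matrix proteins: Tnc, tenascin-C, rose from 173 ± 14.2 to 285 ± 34.9 CPM, and Fn1, fibronectin, from 3210 ± 487 to 6220 ± 1600 CPM (SD, n = 3; edgeR adjusted p = 0.013 and 0.038). Tnc missed the threshold without Vehicle 1 or Vehicle 2 (0.0767 and 0.0586), and Fn1 without any library but EPO 3 (0.0601 to 0.147). The list had 0 higher genes without Vehicle 1 or Vehicle 2 and 1 without Vehicle 3 or EPO 2. S100a8 and S100a9, calcium-binding proteins of neutrophils, had log2 fold changes of 3.03 and 2.69 that did not pass (edgeR adjusted p = 0.0845 and 0.0974), with overlapping groups. Both passed without EPO 1 (0.0356 and 0.04) and without a filter on low counts (0.0175 and 0.0234). They also passed with the replicate number as a block (0.0309 and 0.0345), and S100a8 with DESeq2 (0.0496).

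**Figure D4:**
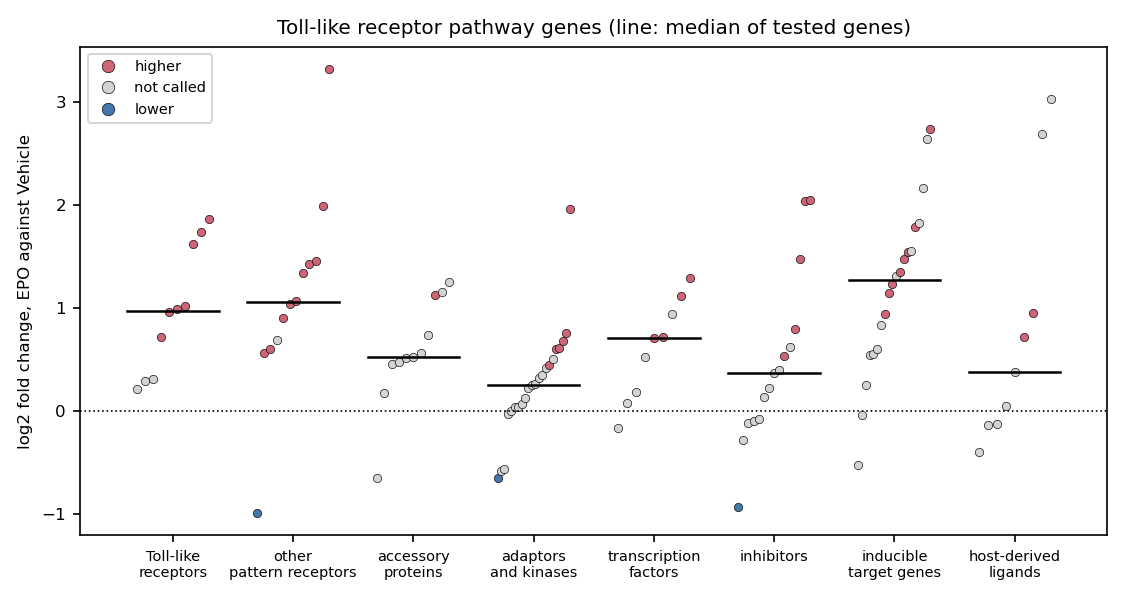
Fitted log2 fold change of each tested gene (vertical axis, points ordered by size) in the Toll-like receptors and in 7 lists of related genes, coloured by call, with a line at the median. The medians are 0.98 for the receptors, 1.06 for other pattern receptors, 1.27 for inducible targets and 0.25 for adaptors and kinases.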

How the data were processed

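RNA of the entire aorta was sequenced from 3 Vehicle and 3 EPO libraries, prepared with a NEBNext Ultra kit per the labels' protocols. CASAVA 1.8, TopHat2 2.0.6 and build mm10 are named per the submitters' processing notes. How reads were counted, with which strand setting and gene models, is not given in the sources used here. Raw counts by Ensembl gene were deposited by the authors (whole numbers, totals differing by library). Columns headed Con were taken as Vehicle.

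Symbols, GRCm38 coordinates and exon lengths came from GENCODE M21 by gene ID (47224 of 47643 IDs matched). In R 4.3.3, edgeR 4.0.16 was used with filterByExpr, TMM and a two-sided quasi-likelihood test, adjusted by Benjamini-Hochberg over the 16522 genes tested. The SE is the log2 fold change divided by the square root of the F statistic, and the 95% interval uses the degrees of freedom of that test. CPM uses TMM-scaled totals. The common biological coefficient of variation was 0.244. Ikbke, Irak2, Tnc, Fn1, Cd180 and Csf1r also overlap exons of a gene on the opposite strand, so their counts are uncertain. The partners of Cd180 and Csf1r, Mast4 and Hmgxb3, held 12190 and 3067 counts over all libraries. Those of Ikbke, Irak2, Tnc and Fn1 held 90 or fewer each. The test was checked on simulated counts. The 95% intervals include the spread between libraries, while the limit given for 0 counts covers counting error only.

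Members and lists were chosen with earlier results of these data known. Named were all members, the 4 genes of smallest p per pathway list, those in the rarer direction, up to 3 per cell type list, and the nearest pair in pattern; Klk1, Ly6g, Il12a, Il12b, Ifnb1, Lyz2, Acaa1a and like partners complete counts or limits. Alternatives were other scalings, filters, tools (DESeq2 1.42.0, limma 3.58.1), a block, a wider threshold, removal of haemoglobin and mitochondrial genes, and each library left out.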

Additional observations from a re-analysis of the deposited data

How the results depend on the processing

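The 7 higher Toll-like receptor genes kept direction and call in edgeR with other scalings, both other filters, robust dispersion, DESeq2, limma-voom with and without sample weights, an adjusted p under 0.1 and without haemoglobin and mitochondrial genes. With the replicate number as a block (replicate block) 5 were higher, Tlr1 and Tlr2 being at adjusted p = 0.0525 and 0.0877; same-numbered libraries did not all deviate together (correlations -0.0088, -0.0098 and 0.127), so the numbers were not taken as a pairing. With single libraries left out, the count of higher receptors ran from 3 to 7. Over all genes, the higher count ran from 936 to 2265 and the lower count from 699 to 2016. Tlr3, Tlr4 and Tlr5 were not called under any of these settings, and no member reversed. Called higher with DESeq2, and without a filter on low counts, were 4 accessory proteins, 5 macrophage and 5 leukocyte markers, against 1, 2 and 3 in edgeR, and with the replicate block 0, 1 and 1. With limma-voom 3 inhibitors were higher. Of the host-derived ligands 3 were higher with DESeq2 and with the replicate block, and 4 without a filter on low counts, against 2 in edgeR. Vehicle 1 was the shallowest library, and Tlr5, with 45 to 88 counts per library, has the lowest depth of the members.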
